A study of Mus musculus with 9 samples.

Results

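The expression of 9 genes tied to Parkinson disease was followed in mouse striatum after the dopaminergic toxin MPTP: Sncb, Lrrk2, Park7, Pink1, Vps35, Atp13a2, Uchl1, Fbxo7 and Synj1. They were found by symbol in the platform annotation, which gave 10 probe sets for these 9 genes, of 21780 probe sets with 1 gene symbol for 19935 genes in all. Lrrk2 had 2 probe sets and every other gene had 1. The second Lrrk2 probe set, at a mean log2 intensity of 5.27 over the 9 arrays, lay below the brightness filter at 5.89, so 9 of the 10 probe sets were tested, 1 for each gene. Mice of the acute group were injected intraperitoneally with MPTP 4 times, 2 h apart, at 20 mg/kg, and their striatum was taken 1 week later. Mice of the chronic group received 4 mg/kg once daily for 20 days, and their striatum was taken after 8 weeks. Both regimens thus summed to 80 mg/kg. The controls had 4 saline injections 2 h apart and 1 week to sampling, so regimen and time cannot be told apart in comparisons with the chronic group. Each group had 3 arrays. Strain, sex and age are not given in the sources used here, and no label ties an array to 1 animal, so the p-values rest on the spread between samples that may be technical repeats.

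MPTP is converted by glia to MPP+, which enters dopamine neurons through their transporter and blocks respiratory complex I. The cell bodies of those neurons lie in the midbrain, so striatal RNA comes from the neurons and glia that surround their axon endings. The proteins studied here act at a few linked stations: mitochondrial quality control (Pink1, Park7, Fbxo7), the path from endosome to lysosome (Vps35, Lrrk2, Atp13a2), the presynaptic terminal (Sncb, Synj1) and ubiquitin turnover (Uchl1, Fbxo7). They are made in many cell types, and in bulk tissue fewer cells of a type and less RNA per cell cannot be told apart.

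Markers of striatal neurons were bright on every array, and markers of neighbouring tissue varied between arrays. Ppp1r1b and Penk, markers of striatal projection neurons, lay at log2 11.44 to 12.31 and 13.16 to 13.56 on all 9 arrays. Of 18 listed markers of these neurons 16 were tested, and their mean, centred on each gene's average over the 9 arrays, ran from -0.55 to 0.12 in the control group, from -0.02 to 0.10 in the acute group and from 0.20 to 0.32 in the chronic group. All 16 were higher in chronic against control and all 16 in acute against control. An unadjusted p under 0.05 in limma was found for 13 and 1 of them, and 0 passed after adjustment. The mean of 15 tested cortex markers reached 1.07 (control 1), 0.68 (acute 1) and 0.89 (acute 2) and stayed between -0.71 and -0.29 on the remaining 6 arrays. The mean of 18 tested markers of thalamus, septum and hypothalamus reached 1.28 (control 3) and 0.65 (acute 3) and stayed between -0.59 and 0.01 on the remaining 7 arrays. The mean of 14 pan-neuronal markers differed less, between -0.15 and 0.11. It ran from -0.0037 to 0.11 in the control group and from -0.045 to 0.06 in the acute group. In the chronic group it ran from -0.15 to -0.015, below all control arrays. Of the 14 markers 9 were lower and 5 higher in chronic against control. No chronic array was high in cortex markers.

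None of the 9 genes passed in any of the 3 comparisons (limma, Benjamini-Hochberg over 16335 probe sets, threshold 0.05). The largest difference was that of Lrrk2 between chronic and control. In chronic against control Sncb was 1.30-fold lower, Park7 1.30-fold lower and Lrrk2 1.46-fold higher, and the 95% intervals of these 3 differences left out 0. Those of the other 6 genes included 0. A 95% interval that leaves out 0 goes with an unadjusted p under 0.05 in limma. Of all 16335 probe sets tested, 5.51% had such a p in chronic against control, and 0 of them passed after adjustment. In acute against control the intervals of all 9 genes included 0, and 0.851% of all probe sets had an unadjusted p under 0.05 in limma.

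Although none passed, these were the 3 genes whose chronic against control intervals left out 0 in the fit of group means, and for that reason the 250 bases before their RefSeq transcript starts are shown (assembly GRCm38.p6, each read 5′ to 3′ on the gene's strand). Capitals mark matches, on either strand, to GGGCGG, bound by Sp1-type factors, or to the NRF1 core (GCGCA and GCGC with any 1 base between them), bound by a regulator of mitochondrial genes. The Sncb window is chr13:54766596-54766845 on the minus strand, the Lrrk2 window is chr15:91672974-91673223 on the plus strand and the Park7 window is chr4:150909922-150910171 on the minus strand.
Sncb: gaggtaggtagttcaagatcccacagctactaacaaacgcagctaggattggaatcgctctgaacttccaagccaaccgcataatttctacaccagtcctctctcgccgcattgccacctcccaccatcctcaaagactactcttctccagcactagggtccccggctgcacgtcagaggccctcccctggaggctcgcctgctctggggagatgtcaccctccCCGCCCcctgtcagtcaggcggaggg
Lrrk2: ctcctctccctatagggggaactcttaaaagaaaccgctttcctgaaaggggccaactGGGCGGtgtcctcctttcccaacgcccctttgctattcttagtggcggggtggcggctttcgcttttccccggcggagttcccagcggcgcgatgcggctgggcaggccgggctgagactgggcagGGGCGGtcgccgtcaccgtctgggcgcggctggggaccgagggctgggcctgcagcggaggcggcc
Park7: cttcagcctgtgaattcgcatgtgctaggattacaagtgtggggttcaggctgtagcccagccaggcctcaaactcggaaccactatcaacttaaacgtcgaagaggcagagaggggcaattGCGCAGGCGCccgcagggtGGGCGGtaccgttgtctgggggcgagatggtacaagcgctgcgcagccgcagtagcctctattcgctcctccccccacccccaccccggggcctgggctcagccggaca
All 3 windows hold GGGCGG on either strand, which 32.7% of the 32851 windows of this length in the RefSeq table hold. The NRF1 core, held by 3.74% of windows, occurs in Park7 and in neither Sncb nor Lrrk2. Of the 9 genes 8 had a window in the table (10 windows). Among them 6 genes held GGGCGG and 3 (Park7, Pink1 and Fbxo7) held the NRF1 core, in at least 1 window each. Searches for TGACNNNGC (the NRF2 core, in 10.2% of all windows), CACGTG (bound by TFEB, in 6.02%) and TATAAA (in 12.4%) found 0 of the 8 genes. The motifs overlapped nowhere in the 3 windows shown. Of these windows, that of Park7 lies before the annotated gene start, and those of Sncb and Lrrk2 lie before a different transcript start. A match is a run of letters and not a measured binding site. The GC share of the windows was 58.8% in Sncb, 67.6% in Lrrk2 and 62.4% in Park7, against a median of 52.4% over all windows.

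**Figure D1:**
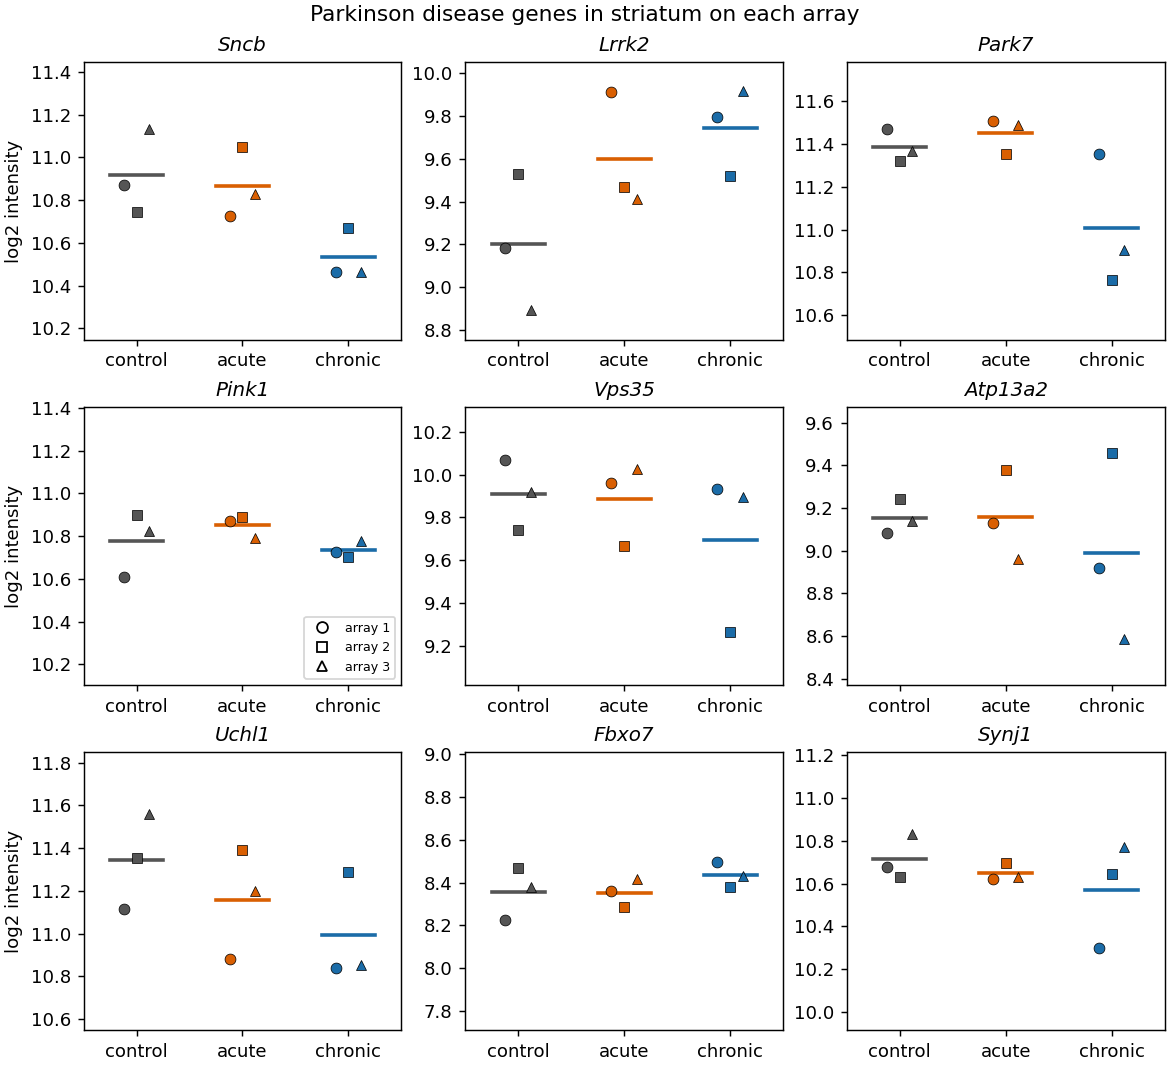
Log2 intensity (vertical axis) of the tested probe set of each gene on the 9 arrays, by group. Symbols give the array number and lines the group mean; every panel spans the same log2 range. The 3 chronic arrays of Sncb lie below all 6 others, and Pink1 and Fbxo7 have the narrowest ranges.

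At the presynaptic terminal, Sncb encodes beta-synuclein, a vesicle-associated protein of the synuclein family. Sncb had log2 intensities of 10.87, 10.75 and 11.13 in the controls, 10.72, 11.05 and 10.83 after acute MPTP and 10.46, 10.67 and 10.46 after chronic MPTP. Every chronic array lay below every control and every acute array. The difference was -0.38 ± 0.13 (SE, n = 3 per group) for chronic against control, with a 95% interval of -0.67 to -0.09 (unadjusted p = 0.0148, adjusted p = 0.876 in limma). For chronic against acute it was -0.34 ± 0.13 (-0.63 to -0.05, adjusted p = 0.877 in limma), and for acute against control -0.05 ± 0.13 (-0.34 to 0.24). The exact permutation test gave p = 0.1 for both chronic comparisons, the smallest value that 3 arrays against 3 allow. Sncb was the 1 gene of the 9 whose groups did not overlap in chronic against control, and with Pink1 it was 1 of 2 in chronic against acute. The groups of 6.55% and 8.63% of all probe sets tested did not overlap in these comparisons. Between acute and control 0 of 9 genes were without overlap, against 3.56% of all probe sets. Both chronic comparisons share the chronic arrays. With the means of the cortex list and the thalamus, septum and hypothalamus list as covariates, the chronic against control difference of Sncb was -0.10 (95% interval -0.44 to 0.23). Leaving out the 3 arrays high in cortex markers gave -0.41, and leaving out control 3 and acute 3 gave -0.28. Control 3 and acute 3 were also the arrays high in choroid plexus markers. For this comparison the first exclusion removes only control 1 and the second only control 3, as in leaving out those single arrays. With the replicate block and the covariates together the difference was -0.058.

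Synj1 encodes synaptojanin 1, the lipid phosphatase that sheds the clathrin coat from recycled synaptic vesicles. In the controls Synj1 stood at log2 10.68, 10.63 and 10.83, after acute MPTP at 10.62, 10.70 and 10.63 and after chronic MPTP at 10.30, 10.65 and 10.77. Only chronic 1 stood below the rest. The difference for chronic against control was -0.14 ± 0.12 (-0.42 to 0.14), and without chronic 1 it was -0.0045. For acute against control it was -0.06 (-0.34 to 0.22).

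Around these genes, 28 of 29 listed genes of vesicle endocytosis and the synuclein family were tested. With chronic MPTP, 0 passed in either direction, 21 were lower and 7 higher, with a median log2 difference of -0.07 against -0.01 over all probe sets tested. Amph, the membrane-bending protein amphiphysin, had the smallest unadjusted p, at 10.39 to 10.54 on the chronic arrays and 10.62 to 10.88 on the controls (-0.32 ± 0.10, unadjusted p = 0.0103, adjusted p = 0.876 in limma). It was followed by Ap2a2, a subunit of the AP-2 adaptor of clathrin, at -0.25 ± 0.12. With the tissue covariates these were -0.11 and -0.09. In acute against control 0 passed, 19 were lower and 9 higher (median -0.02), and Sh3gl3 (endophilin A3, 0.16 ± 0.10) and Dnm3 (dynamin 3, -0.17 ± 0.12) came first.

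Lrrk2 encodes a large protein with a kinase and a GTPase domain, which phosphorylates Rab GTPases on membranes of the endosome and lysosome system; its transcript is abundant in striatal projection neurons. Lrrk2 had log2 intensities of 9.18, 9.53 and 8.89 in the controls, 9.91, 9.47 and 9.41 after acute MPTP and 9.80, 9.52 and 9.91 after chronic MPTP. Control 1 and control 3 lay below all other arrays, while control 2 lay among the treated ones. The difference was 0.54 ± 0.19 for chronic against control (95% interval 0.11 to 0.97, unadjusted p = 0.0189, adjusted p = 0.876 in limma). Acute against control gave 0.40 ± 0.19 (-0.03 to 0.83, adjusted p = 1 in limma) and chronic against acute 0.15 ± 0.19 (-0.28 to 0.58). Both comparisons with control share the control arrays. The same 2 control arrays were lowest in the mean of the striatal projection neuron markers, at -0.41 on control 1 and -0.55 on control 3 against 0.12 on control 2. Control 1 was the control array high in cortex markers and control 3 the one high in thalamic markers. With both tissue covariates the chronic against control difference of Lrrk2 was 0.11 (-0.31 to 0.53), the acute one 0.29 (-0.01 to 0.58), and chronic against acute turned to -0.18 (-0.57 to 0.22). The covariates do not include the striatal projection neuron markers. With them the median difference of those markers went from 0.29 to 0.25 in acute against control and from 0.52 to 0.11 in chronic against control. For Lrrk2, chronic against control was 0.53 without the 3 arrays high in cortex markers, of which only control 1 enters this comparison. It was 0.39 without control 3 and acute 3, of which only control 3 does. Acute against control was 0.20 and 0.33 in these fits, and 0.24 without acute 1. Without the 3 arrays high in cortex markers, acute 3 was the only acute array left. With the replicate block and the covariates together, chronic against control was 0.034 and acute against control 0.22. The second Lrrk2 probe set, tested without the filter, gave 0.13 ± 0.09 for chronic against control and lay between 4.999 and 5.35 on all arrays.

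Of 23 listed Rab GTPases and partners of LRRK2, 21 were tested and 0 passed. Comparing chronic with control, 11 were higher and 10 lower (median 0.01), with Bag5, a co-chaperone, at 0.34 ± 0.15 and Ppm1h, the phosphatase that reverses Rab phosphorylation by LRRK2, at -0.22 ± 0.11. Ppm1h lay between 8.16 and 8.18 on the 3 control arrays and between 7.85 and 8.11 on the chronic arrays. With acute MPTP, 15 were higher and 6 lower (median 0.02), with Rab8b, a LRRK2 substrate, at 0.12 ± 0.09 and Rilpl1, a protein that binds phosphorylated Rabs, at 0.14 ± 0.11.

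**Figure D2:**
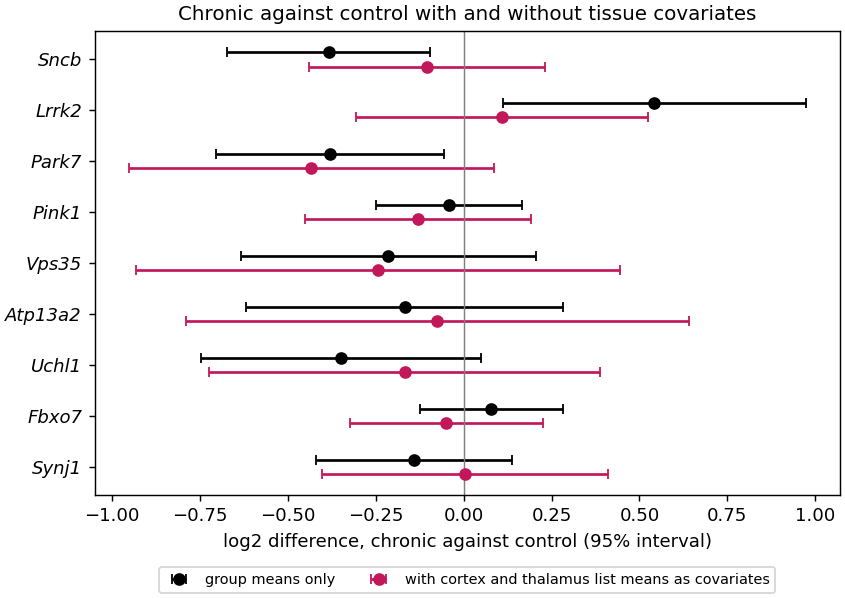
Log2 difference of chronic against control (horizontal axis) for each gene with its 95% interval, from the fit with group means only and from the fit with the cortex and thalamus list means added as covariates. Sncb moves from -0.38 to -0.10 and Lrrk2 from 0.54 to 0.11, whereas Park7 is at -0.38 and -0.43. The fit that adds the replicate block as well is not drawn.

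Among the genes of mitochondrial quality control, Park7 encodes DJ-1, a redox-sensitive protein that protects cells from oxidative stress. In the controls Park7 stood at log2 11.47, 11.32 and 11.37, after acute MPTP at 11.51, 11.35 and 11.49 and after chronic MPTP at 11.35, 10.76 and 10.90. Chronic 2 and chronic 3 lay below all other arrays, and chronic 1 was within the range of the controls. The difference was -0.38 ± 0.14 for chronic against control (95% interval -0.70 to -0.06, unadjusted p = 0.0261, adjusted p = 0.898 in limma) and -0.44 ± 0.14 for chronic against acute (-0.77 to -0.12, unadjusted p = 0.0126, adjusted p = 0.877 in limma). For acute against control it was 0.06 ± 0.14 (-0.26 to 0.39). Without chronic 1 the chronic against control difference was -0.55, and without chronic 2 it was -0.26. Leaving out the 3 arrays high in cortex markers, of which only control 1 enters this comparison, gave -0.34. The difference was -0.43 (-0.95 to 0.09) with the tissue covariates, so that its size, unlike those of Sncb and Lrrk2, did not shrink in that fit. With the replicate block and the covariates together it was -0.43 (unadjusted p = 0.0254, adjusted p = 0.596 in limma), and for chronic against acute -0.54 (unadjusted p = 0.00627, adjusted p = 0.399 in limma). The SD of Park7 was 0.31 in the chronic group against 0.08 in the controls and 0.08 in the acute group.

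Pink1 encodes the kinase that marks damaged mitochondria for removal. Its log2 intensity ran from 10.61 to 10.90 on the control arrays, from 10.79 to 10.89 on the acute arrays and from 10.70 to 10.78 on the chronic arrays. Its difference was 0.07 (95% interval -0.13 to 0.28) for acute against control, -0.04 (-0.25 to 0.17) for chronic against control and -0.11 (-0.32 to 0.09) for chronic against acute. The chronic arrays lay just below the acute arrays without overlap, while the controls covered both ranges. On the linear scale the interval for chronic against control ran from 0.841 to 1.12 times the control level.

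Fbxo7 encodes an F-box protein that selects targets for the SCF ubiquitin ligase and takes part in mitochondrial clearance. It was the least variable of the 9 genes, with an SD over the 9 arrays of 0.09, above that of 11.8% of probe sets tested. It ran from 8.22 to 8.47 on the control arrays, from 8.29 to 8.42 on the acute arrays and from 8.38 to 8.50 on the chronic arrays, and all 3 ranges overlapped. Its difference was -0.0031 (-0.21 to 0.20) for acute against control, 0.08 (-0.12 to 0.28) for chronic against control and 0.08 (-0.12 to 0.29) for chronic against acute.

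In the wider list of mitophagy and mitochondrial quality control 26 of 30 genes were tested and 0 passed. In chronic against control 19 were lower and 7 higher (median -0.05), and Htra2, a mitochondrial protease, came first (-0.27 ± 0.12, unadjusted p = 0.0472, adjusted p = 0.899 in limma), ahead of Parl, the membrane protease that cleaves PINK1 (-0.17 ± 0.11). Comparing acute with control, 17 were lower and 9 higher (median -0.01), with Tomm7, a subunit of the outer membrane translocase, at 0.22 ± 0.13 and Fundc1, a mitophagy receptor, at -0.17 ± 0.16. Of 24 listed genes of the antioxidant response 22 were tested and 0 passed. With chronic MPTP, 16 were higher and 6 lower (median 0.04), with Gsr, glutathione reductase, at 0.25 ± 0.10 and Prdx3, the mitochondrial peroxiredoxin, at -0.23 ± 0.11. In acute against control 11 were higher and 11 lower, with Keap1, the inhibitor of NRF2, at 0.11 ± 0.08 and Gpx4, a lipid peroxidase, at 0.12 ± 0.13.

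On the path from endosome to lysosome, Vps35 is the core subunit of retromer, which returns receptors from endosomes. Vps35 had log2 intensities of 10.07, 9.74 and 9.92 in the controls, 9.96, 9.66 and 10.03 after acute MPTP and 9.93, 9.26 and 9.89 after chronic MPTP. The second array was the lowest in each group, and chronic 2 was the lowest of all. The difference for chronic against control was -0.21 ± 0.19 (-0.63 to 0.21), and it was 0.0030 without chronic 2. With the replicate number as a block its SE was 0.10 (unadjusted p = 0.065, adjusted p = 0.414 in limma). With the block and the tissue covariates together the difference was -0.39 (unadjusted p = 0.0193, adjusted p = 0.596 in limma). For acute against control it was -0.03 (-0.45 to 0.39).

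Atp13a2 encodes a lysosomal P5-type ATPase that exports polyamines. In the controls Atp13a2 stood at log2 9.08, 9.24 and 9.14, after acute MPTP at 9.13, 9.38 and 8.96 and after chronic MPTP at 8.92, 9.46 and 8.59. The second array was the highest in each group. The chronic group held both the highest and the lowest of the 9 values, with an SD of 0.44 against 0.08 in the controls. The difference was -0.17 ± 0.20 (-0.62 to 0.28) for chronic against control and 0.0020 (-0.45 to 0.45) for acute against control. Without chronic 3 the former turned to 0.03, and without chronic 2 it was -0.40.

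All 23 listed genes of retromer and endosomal sorting were tested, and 0 passed. Comparing chronic with control, 12 were higher and 11 lower (median 0.0029), with Washc1, a subunit of the WASH complex, at 0.22 ± 0.11 and Vps26a, a retromer subunit that binds VPS35, at -0.19 ± 0.12. With acute MPTP, 13 were lower and 10 higher (median -0.02), with Washc3, another WASH subunit, at -0.19 ± 0.12 and Snx1, a sorting nexin, at -0.14 ± 0.10. Of 30 lysosomal genes 29 were tested and 0 passed. In chronic against control 16 were lower and 13 higher (median -0.01), with 2 components of the proton pump first, Atp6v1a (-0.37 ± 0.12, unadjusted p = 0.0124, adjusted p = 0.876 in limma) and Atp6ap2 (-0.21 ± 0.12). Atp6v1a was -0.14 with the tissue covariates. Comparing acute with control, 15 were lower and 14 higher, with Atp6ap2 at -0.16 ± 0.12 and Atp6v1b2, another pump subunit, at -0.09 ± 0.09. Of 9 relatives of Atp13a2 and genes of polyamine metabolism 8 were tested and 0 passed in either comparison with control. Of these 8, 4 were higher and 4 lower in chronic against control, and 3 were higher and 5 lower in acute against control. With chronic MPTP, Sat1 (0.22 ± 0.19) and Srm (0.19 ± 0.18), enzymes of polyamine breakdown and synthesis, came first. In acute against control Odc1, the entry enzyme of polyamine synthesis, was at -0.18 ± 0.13 and Sat1 at 0.17 ± 0.19.

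Uchl1 encodes a ubiquitin hydrolase that is among the most abundant proteins of neurons. Uchl1 had log2 intensities of 11.12, 11.35 and 11.56 in the controls, 10.88, 11.39 and 11.20 after acute MPTP and 10.84, 11.29 and 10.85 after chronic MPTP. The first array was the lowest in each group, and all 3 ranges overlapped. The difference was -0.35 ± 0.18 for chronic against control (-0.75 to 0.05, adjusted p = 0.926 in limma), -0.19 ± 0.18 for acute against control (-0.58 to 0.21) and -0.16 ± 0.18 for chronic against acute (-0.56 to 0.23). With the replicate number as a block the SE for chronic against control was 0.12 (unadjusted p = 0.0184, adjusted p = 0.307 in limma). Adding the tissue covariates instead gave -0.17 (-0.72 to 0.39), and block and covariates together gave -0.053. The acute difference was -0.05 without acute 1 and -0.08 without control 3, and -0.30 without either acute 2 or control 1. Chronic against acute was -0.05 without acute 2, -0.09 without either chronic 1 or chronic 3, -0.30 without acute 1 and -0.31 without chronic 2. Of 23 listed ubiquitin hydrolases and SCF genes 18 were tested and 0 passed. Comparing chronic with control, 16 were lower and 2 higher (median -0.11), the lowest of the 8 pathway lists. The F-box genes Fbxo9 (-0.22 ± 0.10, unadjusted p = 0.0446, adjusted p = 0.899 in limma) and Fbxl2 (-0.24 ± 0.12) came first. With acute MPTP, 12 were lower and 6 higher (median -0.05), with Fbxo9 at -0.14 ± 0.10 and Usp14, a deubiquitinase of the proteasome, at -0.16 ± 0.12. With the tissue covariates the chronic against control median of this list was -0.12, that of the mitophagy list -0.09 and that of the vesicle list -0.05, while those of the antioxidant, retromer and polyamine lists turned to -0.02, -0.05 and -0.0061. The median of the lysosomal list went from -0.01 to -0.05, and that of the Rab GTPases and LRRK2 partners from 0.01 to 0.0048. Beside the genes already given, the covariates moved Parl to -0.27 and Prdx3 to -0.37, farther from 0, in chronic against control. They moved Htra2 to -0.18, Vps26a to -0.12, Ppm1h to -0.11, Atp6ap2 to -0.10, Fbxo9 to -0.14, Gsr to 0.14, Sat1 to 0.14 and Srm to 0.06, nearer to 0. For acute against control they moved Fundc1 to -0.08, Rilpl1 to 0.09 and Dnm3 to -0.10. The other named list genes moved by less than 1.5 times. Between chronic and acute 0 genes of the 8 lists passed, and the medians of the lists lay between -0.09 and 0.05. These lists are described by counts and medians, and no list was tested as a whole.

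**Figure D3:**
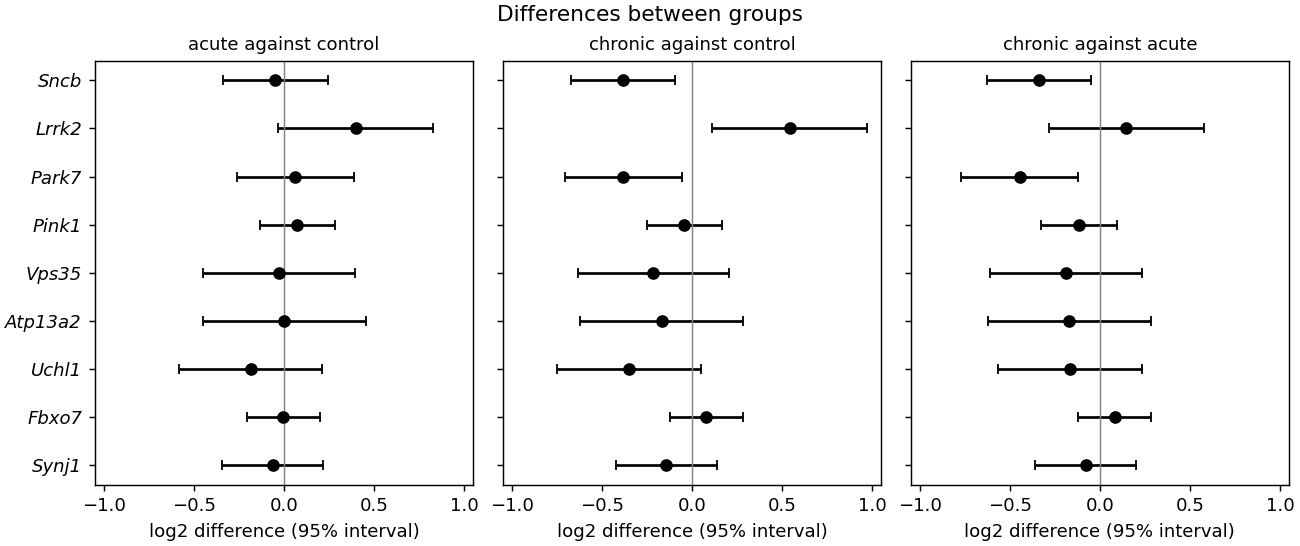
Log2 difference (horizontal axis) of each gene in the 3 comparisons, as points with 95% intervals from limma with 3 arrays per group. Intervals that leave out 0 are those of Sncb, Lrrk2 and Park7 in chronic against control and of Sncb and Park7 in chronic against acute.

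Counted together, 3 of the 9 genes had an unadjusted p under 0.05 in chronic against control, as did 5.51% of all probe sets tested. In chronic against acute 2 of 9 did, against 5.12%, and in acute against control 0 of 9, against 0.851%. After adjustment 0 of 9 passed in each comparison; of all probe sets 0% passed in acute against control, 0% in chronic against control and 0.0122% (2 probe sets, both higher) in chronic against acute. The median log2 difference of the 9 genes was -0.17 in chronic against control, -0.16 in chronic against acute and -0.0031 in acute against control, against -0.01, -0.01 and 0.0036 over all probe sets. With the replicate block 4 of 9 had an unadjusted p under 0.05 in chronic against control, Uchl1 being the added gene, against 13% of all probe sets. For chronic against acute 2 of 9 did (13.9%) and for acute against control 0 of 9 (4.21%). With the tissue covariates 0 of 9 did in any comparison, against 1.16% in chronic against control, 2.06% in chronic against acute and 1.08% in acute against control. With block and covariates together, a fit with 2 residual degrees of freedom, Park7 and Vps35 were the 2 of 9 under 0.05 in chronic against control (8.23% of all probe sets) and again the 2 of 9 in chronic against acute (11%). That fit put 0 of 9 under 0.05 in acute against control, against 6.57%. The 9 genes were chosen with results of these arrays known, so these counts describe them and do not test them as a group.

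The arrays of 1 group also differed along the number in their titles. Vps35 and Park7 were lowest on the second array in all 3 groups, Uchl1 was lowest on the first array in all 3, and Atp13a2 was highest on the second and Park7 on the first. The same number was thus lowest in all 3 groups for 3 of the 9 genes and highest for 2, against 35.7% and 34.7% of all probe sets tested. Of the sum of squares over the 9 arrays, the number accounted for 69.1% in Vps35, 61.7% in Atp13a2 and 45.2% in Uchl1, against a median of 45.1% over all probe sets. It accounted for 24.4% in Park7, under that median, and for 8.08%, 8.41% and 6.03% in Sncb, Lrrk2 and Fbxo7. The group accounted for 62.0% in Sncb, 61.3% in Park7 and 52.1% in Lrrk2, and for 10.5% in Atp13a2, against a median of 19.1%. Number 3 was the highest of each group in the mean of the thalamus, septum and hypothalamus markers (control 1.28, acute 0.65, chronic 0.01). It was also the highest in the mean of the choroid plexus markers (control 0.91, acute 1.66, chronic 0.07). Number and tissue content are therefore not separate sources of spread here. What the numbers stand for is not given in the labels.

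**Figure D4:**
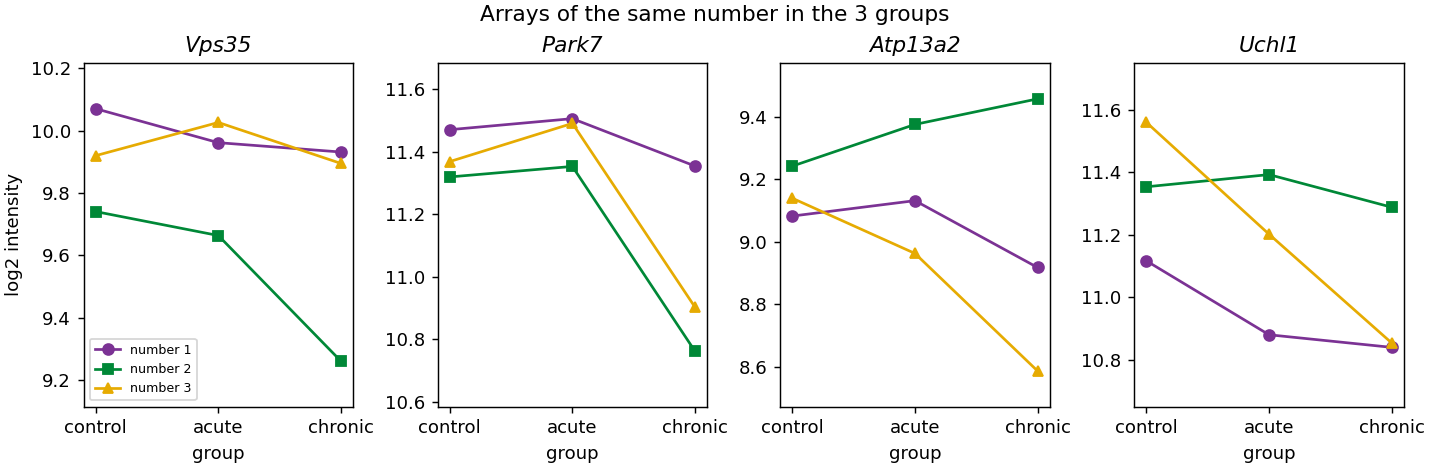
Log2 intensity (vertical axis) of Vps35, Park7, Atp13a2 and Uchl1 in the 3 groups, with lines joining arrays that carry the same number in their titles. Number 2 is the lowest for Vps35 and Park7 and the highest for Atp13a2 in every group, and number 1 is the lowest for Uchl1.

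For the 6 genes whose SD over the 9 arrays lay above the median of all probe sets (0.16), the tested genes with the most similar profile were listed by Pearson correlation over the 9 arrays, as a description of probe sets picked for it. Nearest to Sncb were Mettl27, Nt5dc3 and Gng2, a G protein gamma subunit (r from 0.971 to 0.980). Nearest to Lrrk2 were Rgs7bp, a membrane anchor of RGS proteins, Tdrd7 and Crispld1 (0.974 to 0.985). Nearest to Park7 were Stmn4, a stathmin that binds tubulin, Uqcrc2, a subunit of respiratory complex III, and the ribosomal protein gene Rpl26 (0.981 to 0.985). Nearest to Vps35 were the RNA helicase gene Dhx9, Immt, the core of the mitochondrial cristae junction, and Slc25a4, the mitochondrial ADP/ATP carrier (0.978 to 0.984). Nearest to Atp13a2 were Sbf1, B3gat3 and Kifc3, a kinesin (0.976 to 0.985), and nearest to Uchl1 were the nociceptin receptor gene Oprl1, Gdap1l1 and Pnck, a calmodulin-dependent kinase (0.966 to 0.987). After the group means were subtracted, r over the same 18 pairs lay between 0.929 and 0.989, which the choice of the highest r over the same arrays largely fixes. The number and the tissue markers differ between the same 9 arrays for every pair, and their part in these r values was not tested.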

How the data were processed

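Striatal RNA was hybridised to 9 single-colour Affymetrix arrays, 3 per group. Extraction used a Qiagen RNeasy kit and 200 ng of RNA per labelling reaction, per the labels' protocols. The authors deposited log2 intensities of summarised probe sets, whose scale was read from the values (array medians from 6.85 to 6.90); how background, normalization and summary were handled is not given in those labels. The values were used as deposited. The number of arrays limits the precision.

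The platform annotation named the probe sets: of 28815, 21780 had 1 gene symbol, 1605 several and 5430 none. RefSeq (GRCm38.p6) held the identifiers of 21689 of the 21780 and changed 0 symbols. Those with 1 symbol and a mean at or above their 25th percentile (log2 5.89) were tested, 16335 in all. Limma 3.58.1 (R 4.3.3) fitted a mean per group over the 9 arrays (6 residual degrees of freedom), with two-sided moderated tests and Benjamini-Hochberg adjustment over all probe sets of a comparison. Errors beside differences are standard errors, and intervals are 95% intervals of the same fit. Differences of single genes also had a two-sided exact permutation test, which cannot go below 0.1. The code was tested on simulated data. Alternatives were other filters, quantile normalization, other moderation, only the arrays compared, the replicate block, tissue covariates, and each array left out in turn.

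The 9 genes, the lists and the rules were chosen with earlier results of these arrays known. All 9 genes were named. From each pathway list the genes named were those past the threshold and, in each comparison with control, the 2 with the smallest unadjusted p. The 3 genes of most similar profile were named for each gene with an SD above the median. The probe set with the highest mean stood for a list gene.

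Pairing was checked on each array's deviations from its group mean. Arrays that share a number gave r of 0.157 to 0.673 over probe sets (9 pairs), and arrays that do not gave -0.609 to 0.184 (18 pairs). The 2 ranges overlapped, but among arrays of other groups all 9 arrays had their highest r with an array of their own number. The values, with no statement in the labels, thus pair the arrays by number. Any 2 arrays shared at most 6.34% of values exactly.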

Additional observations from a re-analysis of the deposited data

How the results depend on the processing

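No difference of the 9 genes passed the threshold under any alternative run. Of 270 values under 10 settings other than single arrays left out, 248 kept their direction and 22 turned. Of 243 with 1 array left out, 17 turned. No turn was possible with other filters, other moderation, the replicate block or only the arrays compared, where the difference itself stays the same. The same holds where the array left out belongs to neither group compared. With the replicate block no call changed and no difference moved, since the groups are balanced over the numbers; in chronic against control the adjusted p of Sncb was 0.289, of Park7 0.262 and of Lrrk2 0.311. The following turned in sign. With the tissue covariates, in acute against control Sncb was 0.0079, Atp13a2 -0.020 and Fbxo7 0.0066; in chronic against control Fbxo7 was -0.049 and Synj1 0.0045; in chronic against acute Lrrk2 was -0.18, Fbxo7 -0.055 and Synj1 0.022. With the block and the covariates together, in acute against control Sncb was 0.031 and Fbxo7 0.032, in chronic against control Atp13a2 was 0.14 and Fbxo7 -0.035, and in chronic against acute Lrrk2 was -0.18, Fbxo7 -0.066 and Synj1 0.067. With quantile normalization Fbxo7 was 0.0087 in acute against control. Leaving out arrays by their tissue markers was chosen after seeing the data. Without the 3 arrays high in cortex genes, acute against control gave -0.068 for Pink1, 0.20 for Vps35 and -0.23 for Atp13a2. Chronic against acute gave 0.025 for Atp13a2. That fit left acute 3 as the only acute array, itself the acute array high in thalamic and choroid plexus markers. Leaving out the 2 arrays high in choroid plexus genes gave 0.079 for Sncb and 0.0051 for Synj1 in acute against control. The cause of these turns was not tested.

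With each array left out in turn, differences that turned ranged in acute against control from -0.14 to 0.060 for Sncb, -0.0095 to 0.13 for Pink1, -0.11 to 0.084 for Vps35, -0.11 to 0.10 for Atp13a2 and -0.070 to 0.052 for Fbxo7. In chronic against control they ranged from -0.12 to 0.019 for Pink1, -0.33 to 0.0030 for Vps35 and -0.40 to 0.033 for Atp13a2. In chronic against acute they ranged from -0.31 to 0.029 for Vps35, -0.40 to 0.031 for Atp13a2 and -0.18 to 0.058 for Synj1. The others kept their sign. In chronic against control these were Sncb (-0.47 to -0.28), Lrrk2 (0.39 to 0.71), Park7 (-0.55 to -0.26), Uchl1 (-0.50 to -0.24), Fbxo7 (0.012 to 0.13) and Synj1 (-0.24 to -0.0045). For acute against control they were Lrrk2 (0.24 to 0.56), Park7 (0.030 to 0.11), Uchl1 (-0.30 to -0.046) and Synj1 (-0.10 to -0.0040). In chronic against acute they were Sncb (-0.41 to -0.25), Lrrk2 (0.053 to 0.30), Park7 (-0.62 to -0.32), Pink1 (-0.14 to -0.096), Uchl1 (-0.31 to -0.047) and Fbxo7 (0.048 to 0.11). Over all probe sets, the number past the threshold in chronic against acute was 2. It was 1 without the filter, with only the arrays compared or with block and covariates, and 1 to 5 with each array left out. With the covariates or without the 2 choroid plexus-rich arrays it was 0. In acute against control it was 0, 1 with only the arrays compared and 0 to 1 with each array left out, and in chronic against control 0 and 0 to 2. The highest of these counts, 5, 1 and 2, were each found without chronic 1. The number of arrays limits every comparison, as the intervals show.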
